A study of Cucumis sativus with 4 samples.

Results

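The genes described here are a block of 101 neighbours on cucumber (Cucumis sativus) chromosome 6, from CsaV3_6G007000 to CsaV3_6G008000, out of 24317 genes listed in the deposited table. All members between these IDs were kept whatever their values, and the IDs run in steps of 10 with none missing. The block itself was chosen by measured values, with the genotype comparison of these same libraries known, so its genotype differences are a description and carry no test. Reads came from fruits at anthesis, when the flower is open, in 4 libraries. Of these, 2 were from CsCRC-RNAi plants, named Ci, and 2 from wild-type plants, for which the design text names R1461. The series title links variation in CsCRC with the length of the cucumber fruit. The design text calls them biological replicates; the labels give the tissue as fruit and the sample source as female bud. The labels speak of CsCRC-RNAi lines in the plural and do not say which line each library came from, nor which promoter drives the construct. All 4 libraries share the stage, and no label names a treatment or an age.

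CsCRC is the cucumber CRABS CLAW gene, and CRABS CLAW proteins are YABBY transcription factors that act in the growing carpel, the organ that becomes the fruit. In RNA interference, a transgene makes double-stranded RNA that leads to the breakdown of the matching transcript. In IDs of this kind the number before G is the chromosome and the digits after it follow the order of genes along it, so consecutive IDs are neighbours. Neighbours need not share a function. The members are known here by ID alone: the gene table used paired 0 of the 24317 listed genes with a name, the block included, so no role is given to any of them and no sequence is shown. The CsCRC transcript was not identified by ID and is not analysed here.

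The block occupied places 700 to 800 of the 3936 chromosome 6 genes in ID order. The deposited table gives 1 mean over all libraries and the authors' own comparison for each gene, without naming the genotype on top of the ratio. Below, numerator and denominator stand for the 2 genotypes, and no direction is given as RNAi against wild type. Whole reads per library were recovered from the deposited mean, fold change and error for 95 of the 96 members with reads, and were divided by the library's size factor to give normalized reads. Each library is identified by its side of the ratio and its depth: a deeper and a shallower numerator library (size factors 1.06 and 1.05) and a deeper and a shallower denominator library (0.993 and 0.905). The recovered genes of the whole table held 15918242 to 18510148 reads per library.

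Most of the block was transcribed in the fruit. Only 5 of the 101 members (4.95%, exact Clopper-Pearson 95% interval 1.63 to 11.2) had a mean of 0. This share was 14.2% over all listed genes and 13.1% over the rest of chromosome 6. The interval treats members as independent draws, which neighbours taken as a chosen block are not. It is therefore no test of the block against the other shares. These 5 silent members were CsaV3_6G007100, CsaV3_6G007390, CsaV3_6G007410, CsaV3_6G007570 and CsaV3_6G007630, and none was next to another. A total of 0 reads over all 4 libraries allows a level of up to 0.0311 CPM, for counting error only.

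A further 8 members had between 1 and 16 reads in all 4 libraries together and carried no adjusted p. CsaV3_6G007660 and CsaV3_6G007560 had a single read each, the first in the shallower numerator library and the second in the deeper denominator library. CsaV3_6G007130 had the most of these 8, with 1 read in the deeper and 2 in the shallower numerator library, and 8 in the deeper and 5 in the shallower denominator library. Levels this low were near the limit of detection, and no genotype difference was detectable for them at this depth.

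The members of few reads were not spread evenly. From CsaV3_6G007520 to CsaV3_6G007690, a stretch of 18 genes, 7 had a mean under 10, and the median mean was 40.9 normalized reads. Of the 52 members before it 4 had so few, with a median mean of 562, and of the 31 after it 2, with a median of 833. The borders of this stretch were set after the values were seen. The deposited means of all members are plotted in ID order in the view of reads along the block.

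**Figure D1:**
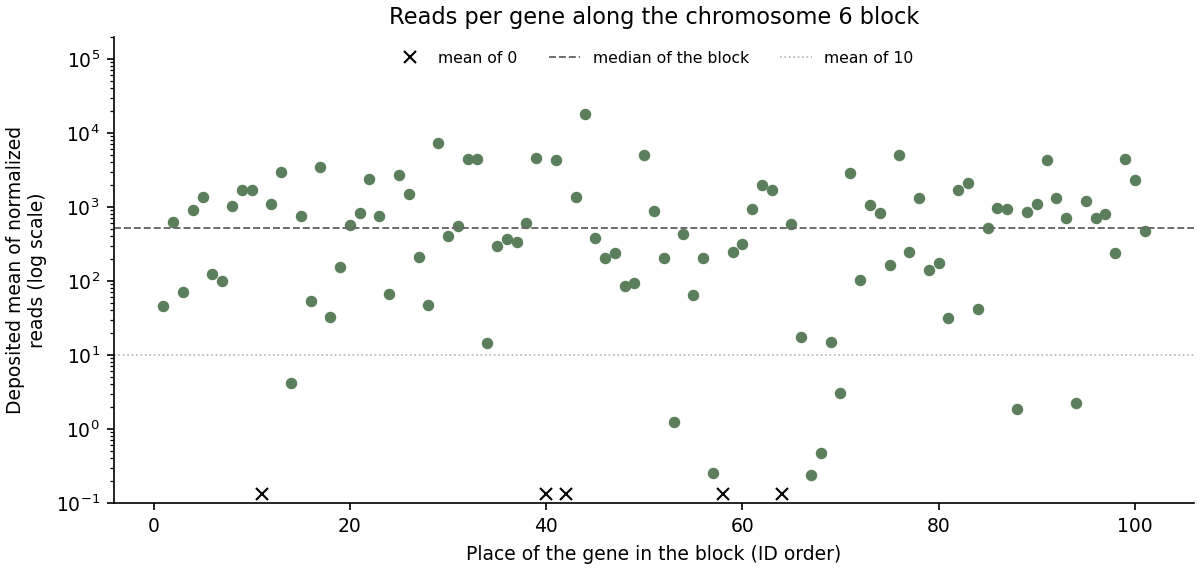
Deposited mean of normalized reads over all 4 libraries (vertical axis, log scale) for each of the 101 members in ID order (horizontal axis). Circles are members with reads, crosses are the 5 members with a mean of 0 (drawn near the lower edge), the dashed line is the block's median of 518 and the dotted line a mean of 10; most members lie above 10, with gaps near the middle of the block.

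Of the other members, 14 had a mean from 10 to 100, 42 from 100 to 1000 and 32 of at least 1000. Gene lengths are not in the files, so these read numbers depend on the length of each transcript as well as on its level, and members are not ranked by expression. CsaV3_6G007430 held the most reads, with a deposited mean of 18108 normalized reads, which was 14.7% of the reads of the block. It lies above the highest mean searched for whole reads, 8000, so no values per library are given. The deposited mean and ratio imply 18296 normalized reads for the numerator and 17920 for the denominator genotype, and the authors' deposited table lists 0.03 ± 0.17 (log2, SE).

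CsaV3_6G007280 was next. Its normalized reads were 6236 in the deeper and 6865 in the shallower numerator library, against 7477 in the deeper and 8434 in the shallower denominator library. Both denominator libraries were above both numerator libraries, by a little: the authors' deposited table lists -0.28 ± 0.14 (log2, SE), and it did not pass. CsaV3_6G007490, CsaV3_6G007750, CsaV3_6G007380 and CsaV3_6G007320 followed, with deposited means between 4498 and 5103 normalized reads. For these the authors' deposited table lists -0.03 ± 0.13, 0.17 ± 0.13, 0.16 ± 0.13 and -0.11 ± 0.13 (log2, SE), and none passed. These 6 members together made up 36.3% of the reads of the block, and the block made up 0.51% of those of the table.

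Set beside 37 other blocks of 101 genes, laid end to end along chromosome 6 from this block outward, the block had few silent genes. The other blocks had between 4.95% and 34.7% of genes with a mean of 0, with a median of 10.9%, and 36 of the 37 had a larger share than this block. A mean under 10 was found in 12.9% of its genes, against 13.9% to 67.3% in the others. The median deposited mean of the block was 518 normalized reads, against 235 over all genes, and 1 other chromosome 6 block had a higher median, at 521. Per library, the median over its recovered and silent members was 512 normalized reads in the deeper and 431 in the shallower numerator library, against 469 in the deeper and 566 in the shallower denominator library. These library medians overlapped between the genotypes.

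**Figure D2:**
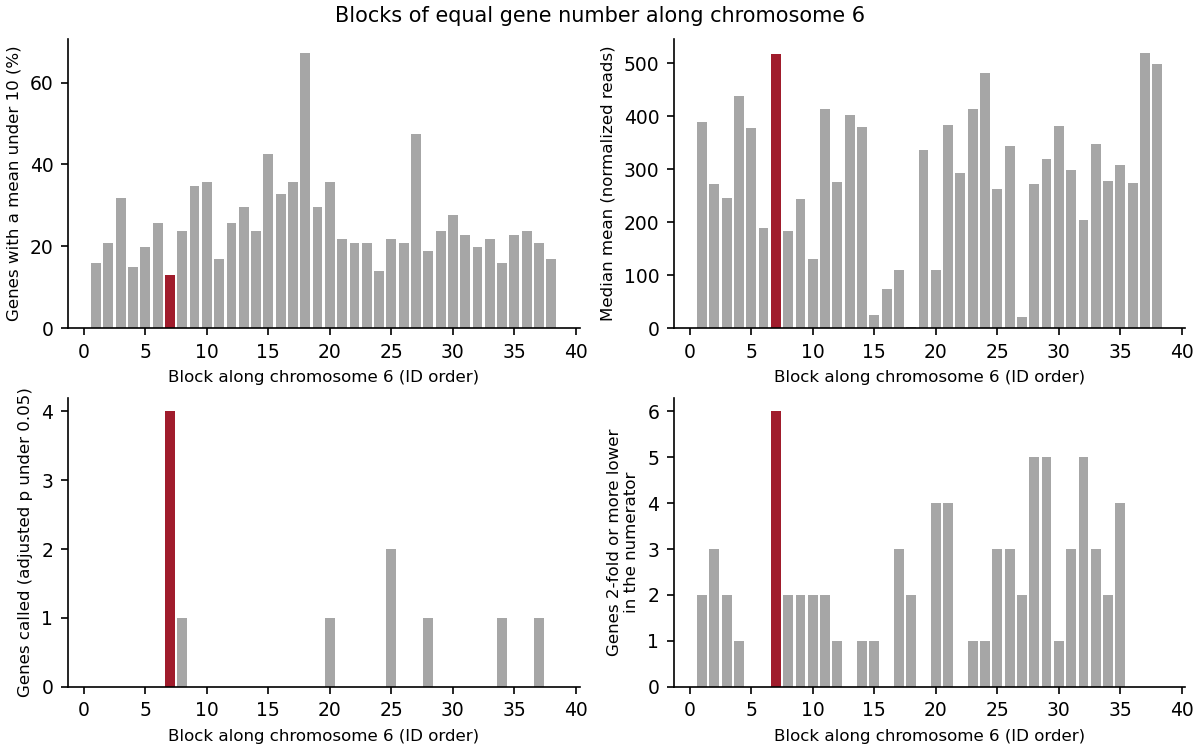
Each bar is 1 of 38 blocks of 101 genes along chromosome 6 in ID order (horizontal axis); vertical axes give the percent of genes with a mean under 10, the median deposited mean in normalized reads, the number of genes called in the deposited table, and the number at least 2-fold lower in the numerator genotype. The red bar is the block described here, with 12.9%, 518, 4 and 6; the other blocks reach at most 2 called genes and at most 5 that were 2-fold lower.

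Between the genotypes, 4 members differed at an adjusted p under 0.05 in the authors' deposited table, all of them lower in the numerator genotype: CsaV3_6G007540, CsaV3_6G007550, CsaV3_6G007580 and CsaV3_6G007740. They are 4 of the 88 members with an adjusted p (4.55%), while over all genes 0.303% were called, 0.238% as lower and 0.065% as higher. No member was called higher (0 of 88). The rule that chose the block used this contrast, so nothing is read from the difference between these shares. Of the other chromosome 6 blocks, 31 had 0 called genes, 5 had 1 and 1 had 2.

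The first 3 of these genes lie close together, in a run of 7 neighbours from CsaV3_6G007540 to CsaV3_6G007600 (places 55 to 61 of the block). Of these 7, CsaV3_6G007570 had no reads and CsaV3_6G007560 had 1. The other 5 are all listed as lower in the authors' deposited table, with log2 values from -5.02 to -0.82 and a median of -3.58. The run was picked by these values, as the longest stretch of clearly lower members with an adjusted p. Their shared direction thus follows from the choice.

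CsaV3_6G007540 opened the run. It had 15.1 normalized reads in the deeper and 4.78 in the shallower numerator library, against 83.6 in the deeper and 155 in the shallower denominator library. Both denominator libraries were thus well above both numerator libraries, of which the shallower held only 5 reads. The authors' deposited table lists -3.58 ± 0.66 for it (log2, SE; DESeq2 adjusted p = 9.13e-05).

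CsaV3_6G007550 had 34.9 normalized reads in the deeper and 21.0 in the shallower numerator library, against 280 in the deeper and 476 in the shallower denominator library. The genotypes did not overlap: the lowest denominator library lay far above the highest numerator library. The authors' deposited table lists -3.76 ± 0.41 for it (log2, SE; DESeq2 adjusted p = 6.59e-16), the smallest adjusted p in the block.

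CsaV3_6G007580 showed the widest difference of any member with an adjusted p. It had 21.7 normalized reads in the deeper and 7.65 in the shallower numerator library, against 282 in the deeper and 673 in the shallower denominator library. The genotypes did not overlap, although the libraries lay 2.83-fold apart in the numerator and 2.39-fold apart in the denominator genotype. The means were 14.7 ± 9.91 and 477 ± 276 normalized reads in the numerator and denominator genotypes (SD, n = 2 each), a 32.6-fold difference. The authors' deposited table lists -5.02 ± 0.90 for it (log2, SE; DESeq2 adjusted p = 4.88e-05).

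CsaV3_6G007590, the next gene, was uncalled although its deposited fold change was large. It had 126 normalized reads in the deeper and 48.8 in the shallower numerator library, against 332 in the deeper and 751 in the shallower denominator library. The genotypes did not overlap, but the libraries of each genotype lay 2.59-fold and 2.26-fold apart. The authors' deposited table lists -2.63 ± 0.84 for it (log2, SE; DESeq2 adjusted p = 0.26).

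CsaV3_6G007600 closed the run and lay just outside the threshold. It had 740 normalized reads in the deeper and 606 in the shallower numerator library, against 998 in the deeper and 1379 in the shallower denominator library. The genotypes did not overlap, and the difference between them was 1.76-fold. The authors' deposited table lists -0.82 ± 0.22 for it (log2, SE; DESeq2 adjusted p = 0.0663).

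On either side of the run the genotypes overlapped. CsaV3_6G007530, just before it, had 481 normalized reads in the deeper and 355 in the shallower numerator library, against 489 in the deeper and 389 in the shallower denominator library. CsaV3_6G007610, just after it, had 1886 in the deeper and 2043 in the shallower numerator library, against 2144 in the deeper and 1898 in the shallower denominator library. The authors' deposited table lists -0.07 ± 0.25 and -0.04 ± 0.15 for these neighbours (log2, SE).

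**Figure D3:**
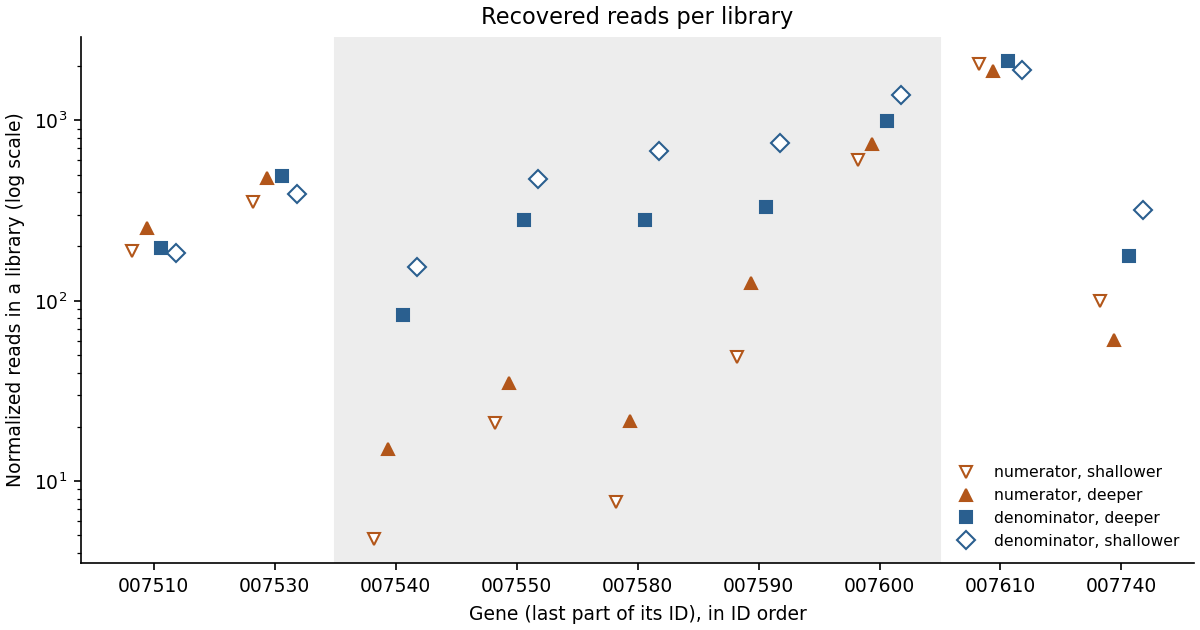
Normalized reads (vertical axis, log scale) in each of the 4 libraries for 9 members in ID order (horizontal axis, last part of the ID). Triangles are numerator and squares or diamonds denominator libraries, with filled symbols for the deeper library of each genotype. In the 5 genes on grey, from CsaV3_6G007540 to CsaV3_6G007600, the order of the libraries is the same, while in CsaV3_6G007530 and CsaV3_6G007610 the genotypes overlap.

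The fourth called gene, CsaV3_6G007740, lies outside the run, at place 75. It had 60.3 normalized reads in the deeper and 99.4 in the shallower numerator library, against 177 in the deeper and 320 in the shallower denominator library. The genotypes did not overlap, and the denominator mean was 3.11-fold the numerator mean. The authors' deposited table lists -1.64 ± 0.42 for it (log2, SE; DESeq2 adjusted p = 0.0398), the called value nearest to the threshold. Its neighbours CsaV3_6G007730 and CsaV3_6G007750 are listed at 0.08 ± 0.16 and 0.17 ± 0.13 (log2, SE) in the authors' deposited table and were uncalled.

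Outside the run, the block showed no common direction. The run was defined by log2 values lower by more than 0.5, so leaving it out removed only lower members. Of the 83 other members with an adjusted p, 41 were listed as lower and 42 as higher in the authors' deposited table, with a median log2 fold change of 0.00 and a median absolute value of 0.14. For 74 of the 83 the absolute value was under 0.5. The 32 members with a mean of at least 1000, all outside the run, ranged only from -0.29 to 0.27. Over all 88, 46 were listed as lower (52.3%), the median absolute log2 fold change was 0.15, against 0.13 over all genes adjusted, and 5 of the 37 other chromosome 6 blocks had a larger median.

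The widest uncalled differences outside the run were mostly in members with a mean under 100. CsaV3_6G007230 had 88.5 normalized reads in the deeper and 76.5 in the shallower numerator library, against 49.3 in the deeper and 50.8 in the shallower denominator library. Its genotypes did not overlap, and the authors' deposited table lists 0.72 ± 0.44 (log2, SE), the highest value among the 88 members with an adjusted p, which did not pass. CsaV3_6G007330, CsaV3_6G007000 and CsaV3_6G007260 followed at 0.56 ± 0.91, 0.42 ± 0.54 and 0.38 ± 0.32 in the authors' deposited table. CsaV3_6G007270 had 26.4 normalized reads in the deeper and 33.5 in the shallower numerator library, against 36.2 in the deeper and 90.6 in the shallower denominator library. It is listed at -1.08 ± 0.64 (log2, SE) in the authors' deposited table and did not pass; without the shallower denominator library its log2 ratio was -0.27. CsaV3_6G007680 is listed at -0.70 ± 0.91 in the authors' deposited table.

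In all, 6 of the 88 members were at least 2-fold lower in the numerator genotype in the authors' deposited table, and 0 were at least 2-fold higher. Over all genes adjusted these shares were 2.63% and 1.46%. An unadjusted p under 0.05 was listed for 8 members, against 4.15% of genes overall; beyond the called genes, CsaV3_6G007590 and CsaV3_6G007600, these were CsaV3_6G007240, at 0.26 ± 0.13 (log2, SE) in the authors' deposited table, and CsaV3_6G007280. At the borders of the block, the first genes outside it were CsaV3_6G006990, with a mean of 10.1 normalized reads and a value of -0.05 ± 1.17 (log2, SE) in the authors' deposited table, and CsaV3_6G008010, with a mean of 2.23 and no adjusted p.

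**Figure D4:**
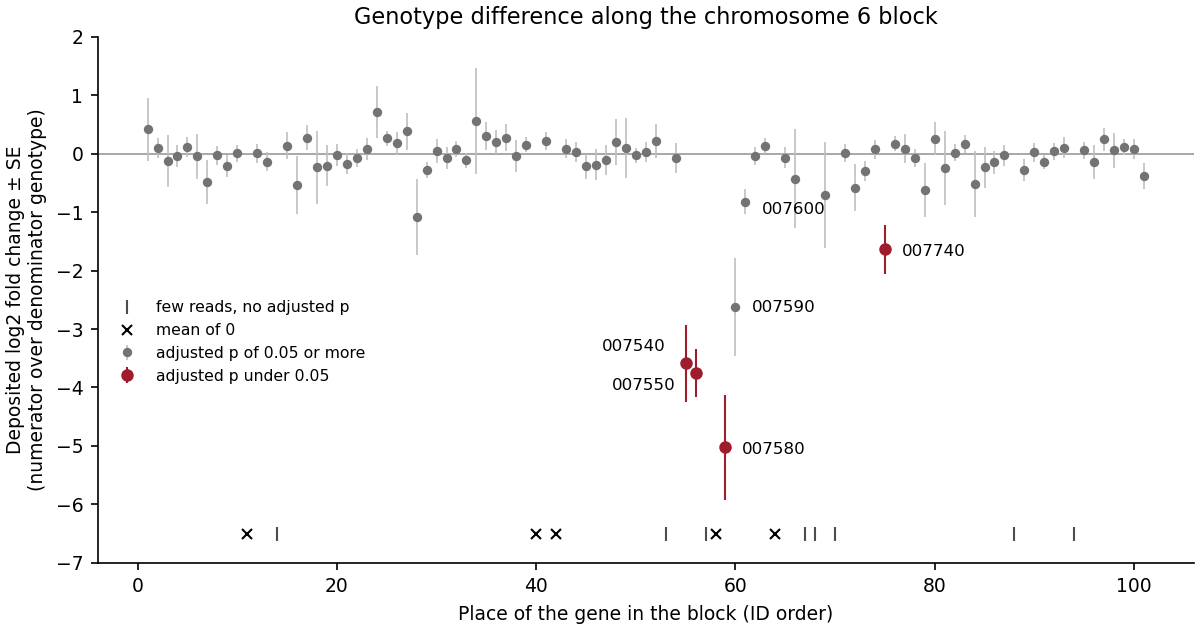
Deposited log2 fold change, numerator over denominator genotype (vertical axis, bars are the deposited SE), for the 88 members with an adjusted p in ID order (horizontal axis). Red points are the 4 members with an adjusted p under 0.05, and marks along the lower edge show the 8 members of few reads and the 5 with a mean of 0; apart from the run at places 55 to 61, CsaV3_6G007270 and CsaV3_6G007740, most points lie close to 0.

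How small a difference could pass depended on the reads. The deposited SE had a median of 0.59 on the log2 scale for the 14 members with a mean from 10 to 100, 0.23 for the 42 from 100 to 1000 and 0.15 for the 32 of at least 1000. Over all genes of these classes the medians were 0.64, 0.23 and 0.15. CsaV3_6G007580 and CsaV3_6G007590 had SEs of 0.90 and 0.84, the widest among members with a mean of 100 to 1000.

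The recovered reads show a second regularity of the run, which the deposited comparison does not. In each of its 5 genes with an adjusted p, the shallower numerator library was lowest, followed by the deeper numerator, the deeper denominator and the shallower denominator library. This order was found in 8 of the 87 recovered members with an adjusted p and in 3.98% of all such genes. The other 3 were CsaV3_6G007640, CsaV3_6G007800 and CsaV3_6G007830, whose libraries lay much closer together. Since the run was picked for a low numerator, part of this order follows from the choice. The order needs both denominator libraries above both numerator libraries, which held in 23 of the 87 members and 3128 of all 18001 such genes. Of these, 8 members and 717 genes had the order.

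The ratio between libraries of one genotype was not used to choose the block. The shallower denominator library held 1.85, 1.70, 2.39, 2.26 and 1.38 times the normalized reads of the deeper one in CsaV3_6G007540, CsaV3_6G007550, CsaV3_6G007580, CsaV3_6G007590 and CsaV3_6G007600. The deeper numerator library held 3.15, 1.66, 2.83, 2.59 and 1.22 times those of the shallower one in the same 5 genes. Numerator reads were few in most of the run: 16 against 5 reads in CsaV3_6G007540, 37 against 22 in CsaV3_6G007550 and 23 against 8 in CsaV3_6G007580. In CsaV3_6G007740 the denominator ratio was similar, at 1.81, but the numerator ratio went the other way, at 0.606. Along the run the ratio thus kept its direction within each genotype. Within a genotype the same pair of libraries gave all of these ratios, so the 5 genes are not replicates of this direction.

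Over the block as a whole the libraries of a genotype were closer. Over the 73 recovered members with a mean of at least 100, the median absolute log2 ratio, with 0.5 added to each value, was 0.17 in the numerator pair and 0.14 in the denominator pair. The same medians over all genes were 0.16 and 0.13, and 12 and 14 of the 37 other chromosome 6 blocks had larger ones. In the denominator pair 4 of these members were more than 2-fold apart: CsaV3_6G007580, CsaV3_6G007590 and, outside the run, CsaV3_6G007780 and CsaV3_6G007840, which had 241 and 756 normalized reads in the shallower denominator library and 98.7 and 365 in the deeper one. These 4 were 5.48% of the 73 members, against 2.13% over all genes with such means, and 2 other chromosome 6 blocks also had 4. In the numerator pair CsaV3_6G007580 and CsaV3_6G007590 were also more than 2-fold apart. Their numerator means were 14.7 and 87.5 normalized reads, so they reached a mean of 100 only through the denominator genotype. The numerator median of 0.17 includes them and other members kept in this way. Among those were CsaV3_6G007550 and CsaV3_6G007740, with numerator means of 27.9 and 79.9. Neither CsaV3_6G007780 nor CsaV3_6G007840 passed between genotypes, at -0.62 ± 0.47 and -0.24 ± 0.35 (log2, SE) in the authors' deposited table.

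**Figure D5:**
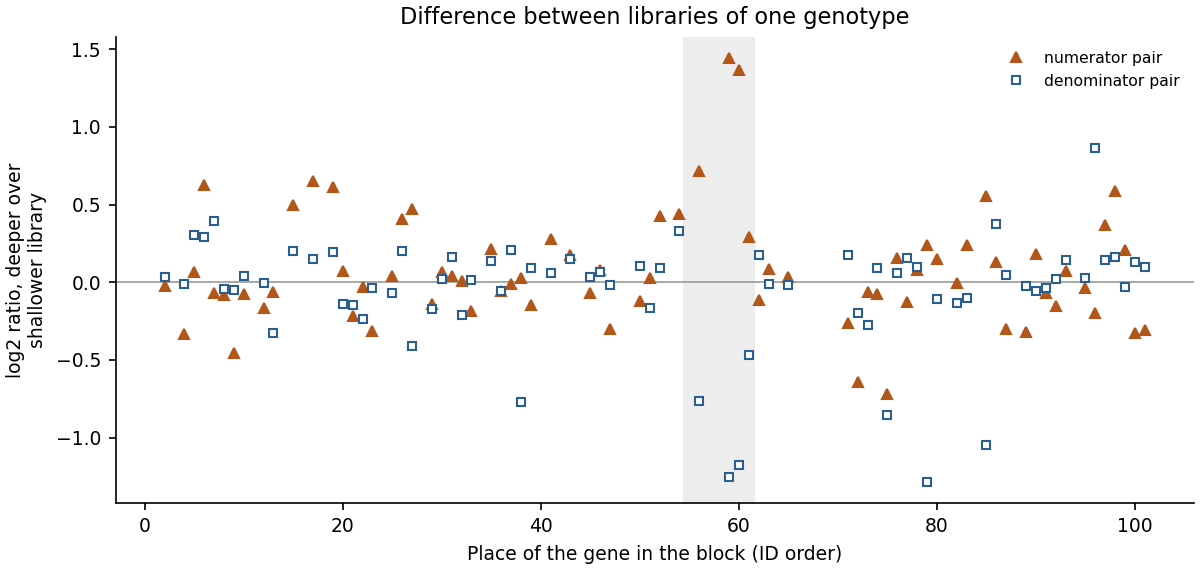
log2 ratio of normalized reads, deeper over shallower library of one genotype (vertical axis, 0.5 added to each value), for the 73 recovered members with a mean of at least 100 in ID order (horizontal axis). Triangles are the numerator pair and squares the denominator pair; in the run on grey (places 55 to 61) the squares are all below 0, while 3 of the 4 triangles belong to genes with a numerator mean under 100, which were kept through their denominator reads.

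To place the run along the genome, medians were taken over each set of 5 consecutive genes with an adjusted p on the numbered chromosomes. The set from CsaV3_6G007540 to CsaV3_6G007600 had a median log2 value of -3.58 from the authors' deposited table, and together with the 2 sets that overlap it and share this median it was the lowest of 18106. The lowest sets outside the block began with CsaV3_6G039670, also on chromosome 6, at -2.43. With 3 or 7 genes per set, sets of the same run were again lowest, at -3.76 and -2.63. For the same 5 genes the median log2 ratio in the denominator pair was -0.88, with 91 of 15941 sets lower. In the set from CsaV3_6G039670 to CsaV3_6G039710 this median was -2.08, so a gap within the denominator pair was not particular to the run. These ranks describe the libraries and carry no test, since the run was singled out for its fold changes.

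Of the 87 recovered members with an adjusted p, 23 had each denominator library above each numerator library, and 16 had the reverse. Over all genes these shares were 17.4% and 17.9%. Summed over the 7 members of the run, the normalized reads were 938 in the deeper and 688 in the shallower numerator library, against 1976 in the deeper and 3433 in the shallower denominator library. The uncalled CsaV3_6G007600 alone supplied 740 and 606 of the numerator sums, and 998 and 1379 of the denominator sums, in the same order. Over all recovered members the sums lay between 103600 and 106407 in the 4 libraries.

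A second test on the recovered reads gave no calls. In limma voom, 0 of the 87 members tested passed at an adjusted p under 0.05, as did 0% of all 18001 genes, while 9 members and 4.58% of all genes had an unadjusted p under 0.05. The limma log2 fold changes of the 5 run genes and CsaV3_6G007740 were close to the deposited ones, between -5.00 and -0.80, each at a limma adjusted p = 0.924. The reads had been recovered so as to give the deposited fold changes, so this closeness was largely built in. Without the deeper denominator library limma called 4 members (0.522% of all genes), namely CsaV3_6G007540, CsaV3_6G007550, CsaV3_6G007580 and CsaV3_6G007590. Without the shallower one it called 2 (0.111% of all genes), CsaV3_6G007550 and CsaV3_6G007580. Without either numerator library it called 0. In these fits the lone library of a genotype was given the spread of the other genotype.

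Whether the members of the run share sequence, and whether their reads could be exchanged between near-identical copies, was not tested. RNA from fewer cells of a type and less RNA per cell cannot be told apart in these bulk samples.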

How the data were processed

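RNA of 4 libraries was extracted with Trizol and made into libraries with the NEBNext Ultra RNA kit, per the labels' protocols. The submitters' processing notes name HISAT2 and DESeq2. Not given in the sources used here are their versions, the genome build, how reads were counted and whether strand was used. The deposited mean is a signal value that the authors' table heads baseMean, taken as the mean over libraries of reads divided by size factors. The deposited fold change and SE are on the log2 scale, the deposited score is the fold change over its SE, and the authors' p-value and adjusted p come from that score. The adjustment covered 18461 genes.

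Whole reads were recovered by searching for the sets of 4 whole numbers that give the deposited mean to its last digit and, for means from 10 to 8000, the deposited fold change under the dispersion that the SE implies. A set was kept within 2.5e-06 (2e-08 for the highest means) of the fold change and if the next set lay 10 times farther. Reads were recovered for 20408 of 20868 genes with reads (97.8%). In simulated data, 1471 of 1475 genes came back right and 0 wrong, and of 1000 decoys with a moved mean 7 were accepted, all with a mean above 1000. Under a mean of 10 the mean alone was matched (3228 genes), and neither check covers these.

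The deposited comparison was kept as the main result. Limma voom (limma 3.58.1, R 4.3.3; other steps Python 3.11.15) was run on recovered reads of all 18001 genes with an adjusted p, also without each library, and was tested on simulated data. The members, the named genes and the lists were chosen with earlier results of these data known. Named genes were the called members and their neighbours, the 6 with the most reads, the 4 largest uncalled rises and falls with a mean of at least 10, and the genes at the borders. Others named were picked after their values were seen: the run's other members, CsaV3_6G007610 and CsaV3_6G007510 (plotted), members of few reads, and those apart within a genotype or sharing the libraries' order. Exact binomial intervals cover counting error only.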

Additional observations from a re-analysis of the deposited data

How the results depend on the processing

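Over all genes the deposited comparison called 56, with 29 and 74 at adjusted p thresholds of 0.01 and 0.10 and 45 with a 2-fold limit. The totals were 51, 57 and 42 when p-values were adjusted over every gene, or over means of at least 10 or 100. The count of 4 called members in the block was between 3 and 5 over these same settings. In limma voom on recovered reads it was 0, and without 1 library it ran from 0 to 4, with 2 when the shallower denominator library was left out; the cause was not tested. Of 30 limma values for the 5 run genes and CsaV3_6G007740, none changed sign. In each of these genes the genotypes did not overlap, so leaving out 1 library left little room for a reversal. The kept sign is therefore no evidence that the differences are robust. With all 4 libraries, each of the 4 called members lost its call in limma, while CsaV3_6G007590 and CsaV3_6G007600 had none to lose. With silent defined as a mean under 10, the share was 12.9% in place of 4.95%, since more genes count. The median mean was 716 over members with an adjusted p, which leaves out the genes of few reads, and 383 without the first and last 10 genes. The median absolute log2 fold change of 0.15 was 0.13 for means of at least 100, 0.14 without the called members and 0.18 without the ends. The median absolute log2 ratio was 0.19 (numerator pair) and 0.15 (denominator pair) for means of at least 10, and 0.16 and 0.13 without the called members; these and the 3-gene and 7-gene sets were chosen after seeing the data. By median absolute log2 fold change the block ranked 6 of 38 end-to-end blocks (15.8% from the top) and 716 of 3836 overlapping ones (18.7%). No paired analysis was possible because no column of the table names a replicate, and which labelled replicate each recovered library is cannot be told. Depth limits the 14 members with a mean from 10 to 100, where the median SE was 0.59, and more so the 8 with fewer reads, where the smallest SE was 1.76.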
